A study of Mus musculus with 6 samples.

Results

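The genes described here encode the translation initiation factors, which bring the initiator tRNA, the ribosomal subunits and the mRNA together, and the kinases that phosphorylate eIF2. They were chosen by name: every probe with exactly 1 gene symbol beginning with Eif and a digit of 1 to 6 was taken, and where several probes named a gene, the brightest by mean log2 intensity over the 6 arrays stood for it. This gave 62 probes and 48 genes, of 18014 genes tested. The cells were 3T3-L1, an established mouse line of fat cell precursors, turned into adipocytes with an adipogenic cocktail and harvested 10 days after differentiation. Biotin-labelled total RNA was read on CodeLink bioarrays covering the mouse genome, 3 for cells made to express uncoupling protein 1 (UCP1) and 3 for controls that held the Tet-off plasmid alone, a component of tetracycline-controlled expression. The study asked what forced UCP1, which lets protons leak across the inner mitochondrial membrane and so uncouples respiration from ATP synthesis, does to adipocyte gene expression. The titles of the UCP1 arrays end in UCP1, UCP2 and UCP3, while the source label of all 3 names uncoupling protein 1, which was followed here. Clone number, the Tet-off content of the UCP1 cells and separate culture of the arrays are not given in the labels, and the p-values therefore cover array-to-array spread that may be technical.

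In initiation, eIF2 carries the initiator tRNA to the small ribosomal subunit, eIF3 binds that subunit, and the cap-binding complex eIF4F (the cap-binding eIF4E, the helicase eIF4A and the scaffold eIF4G) recruits the mRNA. After each round the exchange factor eIF2B reloads eIF2 with GTP. Phosphorylation of eIF2 by the kinases HRI, PKR, PERK and GCN2 turns eIF2 into an inhibitor of eIF2B, which lowers general translation and favours a few mRNAs such as that of ATF4. The 4E-binding proteins hold eIF4E away from eIF4G until mTORC1, a kinase complex that responds to insulin and nutrients, phosphorylates them.

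Ucp1 checked the labels. It read 2.34, 2.02 and 1.54 on the UCP1 arrays, against 0.222, 0.232 and 0.278 on the Tet-off arrays, a log2 difference of 3.00 ± 0.234 (SE, limma, adjusted p = 0.00013). An exact permutation test gave p = 0.1, the smallest value that 3 against 3 arrays allow. Intensities are relative to an array median of 1.04 to 1.05. In the cell type lists, 0 of 6 measured adipocyte markers passed the test, with summed intensities of 2278 to 3215 on the UCP1 arrays and 2849 to 3262 on the Tet-off arrays. Of 8 preadipocyte and fibroblast markers 2 rose (Thy1 and Pdgfra) and 4 lay below 0 (Fn1, Cd34, Col1a1 and Col3a1), with a list median of 0.14. After quantile normalization 3 of the 8 rose, with a list median of 0.41. Sums over the 8 were 776 to 1006 in UCP1 cells and 829 to 1024 in Tet-off cells. Of these sums Col3a1 alone made up 511 to 669 in UCP1 cells and 532 to 734 in Tet-off cells. In the macrophage list 1 of 4 markers rose (Lyz2), with sums of 2.86 to 4.42 in UCP1 cells and 1.05 to 1.99 in Tet-off cells. Lyz2 alone made up 2.46 to 3.98 in UCP1 cells and 0.83 to 1.34 in Tet-off cells. Itgam stood at 0.29, Adgre1 at -0.36 and Ptprc at -0.14, all with overlapping groups. No marker read at or below 0 on any array, the macrophage-defining Adgre1 and Ptprc lay below the array medians on all 6, and the part of these shifts in the results below was not tested. In bulk RNA, fewer cells of a type and less RNA per cell cannot be told apart.

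Of the 48 genes, 3 fell in UCP1 cells and 0 rose (limma, Benjamini-Hochberg adjusted p under 0.05 over all 36116 tested probes). The 3 were Eif4e3, a cap-binding relative of eIF4E, Eif5a, the hypusine-bearing factor that helps ribosomes through difficult peptide bonds, and Eif4ebp2, a 4E-binding protein. Over all genes 2.92% were called lower and 1.13% higher, and 2.83% of all probes were called in either direction. With an unadjusted p under 0.05 the 48 held 21 lower (43.8%) and 0 higher genes, against 15.1% lower over all genes and 22.3% lower among genes at or above the median probe. In the deposited scaling the median log2 difference was -0.27 and 42 genes of the 48 were negative (87.5%), against -0.08 and 60.1% over all genes. After quantile normalization 30 of the 48 lay below 0, the median was -0.092, against 0.0088 over all genes, and 1 call was left, that of Eif4e3. The 3 UCP1 arrays lay wholly below the 3 Tet-off arrays in 21 of the 48 genes and wholly above in 1, where 17.1% and 8.09% of all genes did so. Of all probes 21.9% had such separated groups in either direction. The count of calls was 9 without UCP1 array 1, 9 without UCP1 array 2 and 0 without UCP1 array 3. It was 1 without Tet-off array 1, 1 without Tet-off array 2 and 4 without Tet-off array 3. These counts moved along with those over all probes. The same fits called 1894 probes without UCP1 array 1, 1894 without UCP1 array 2 and 159 without UCP1 array 3. The fits without a Tet-off array lay in between.

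**Figure D1:**
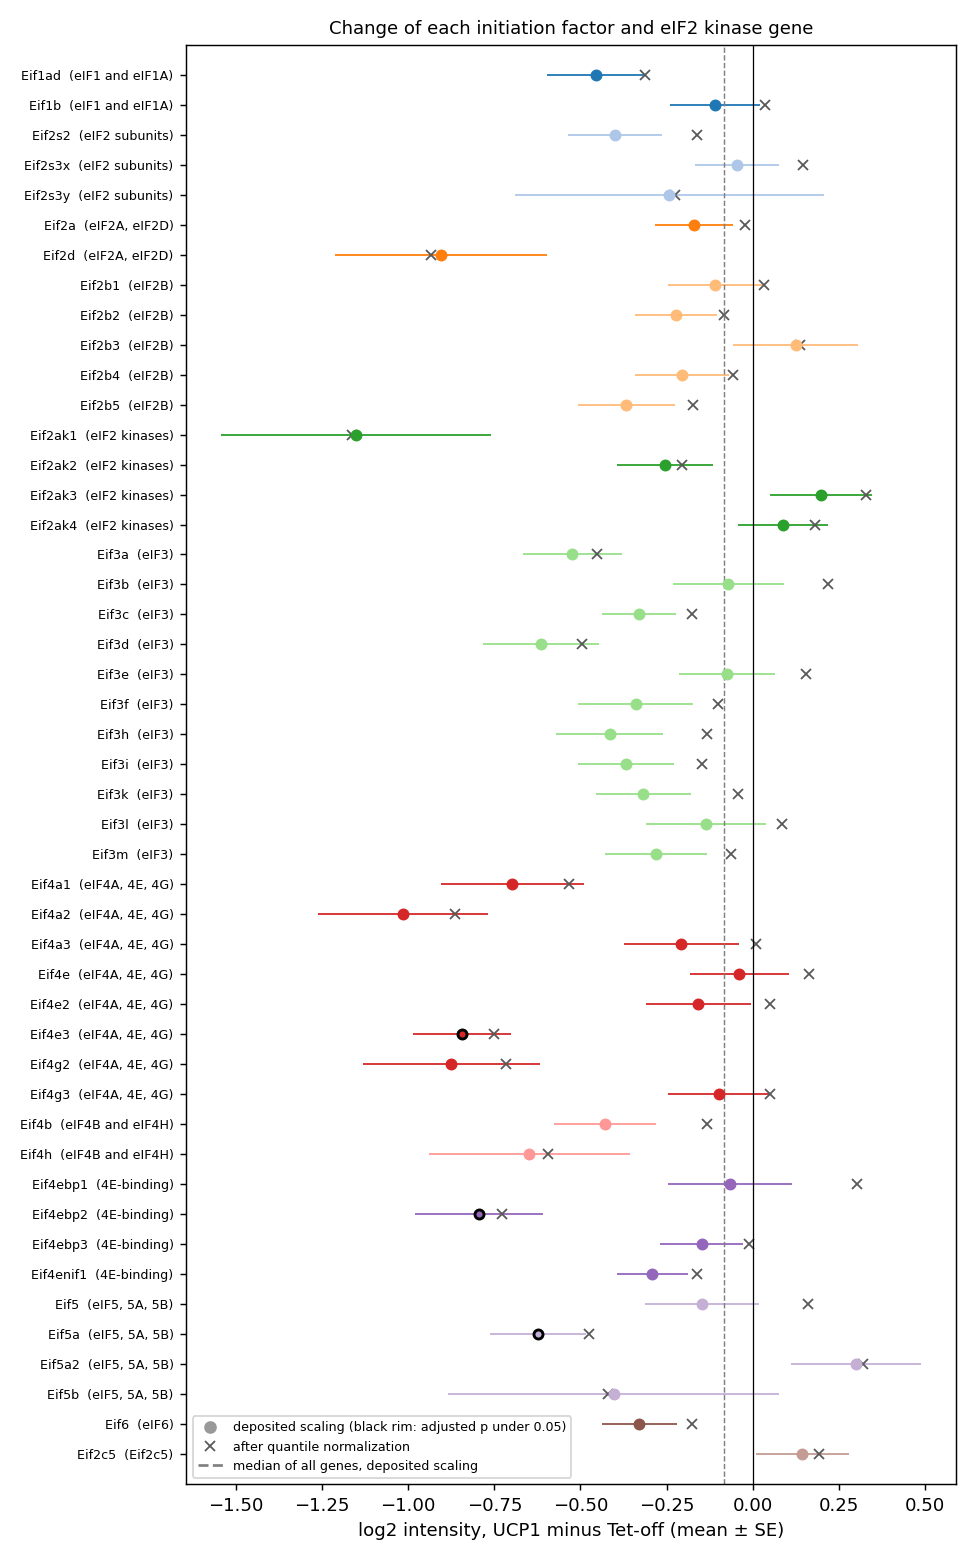
Log2 intensity of UCP1 minus Tet-off (mean ± SE, n = 3 each) for 47 of the 48 genes, grouped by complex, in the deposited scaling (circles) and after quantile normalization (crosses), with the median of all genes as a dashed line. Eif4e1b, whose estimate rests on values near and below 0, is left out; the circles of 42 genes lie left of 0, the 3 called genes have a black rim, and most crosses lie to the right of their circles.

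For Eif4ebp2 and Eif5a, called genes with an entry in the promoter table, the flank of the outermost listed transcription start is shown, cut to the bases outside the annotated gene. Sequences are those of RefSeq on GRCm38.p6, 5′ to 3′ on the gene's strand. Both strands were searched for CACGTG (the E-box), TGATGNAA (the core of the element bound by C/EBP and ATF4 dimers) and CCGGAA (the ETS core), and neither stretch holds one, so no letters are capitals. The Eif4ebp2 stretch covers 129 bases at chr10:61452791-61452919 on the minus strand, and the Eif5a stretch 250 bases at chr11:69921959-69922208 on the minus strand.
Eif4ebp2: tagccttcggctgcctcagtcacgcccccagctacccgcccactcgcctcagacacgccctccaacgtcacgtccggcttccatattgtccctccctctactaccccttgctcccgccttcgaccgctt
Eif5a: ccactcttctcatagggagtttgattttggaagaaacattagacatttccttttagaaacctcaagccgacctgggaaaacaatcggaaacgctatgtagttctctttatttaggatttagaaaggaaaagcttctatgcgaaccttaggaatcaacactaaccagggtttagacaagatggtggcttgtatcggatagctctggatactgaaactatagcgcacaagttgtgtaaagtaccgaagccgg
Over the 250 bases before every listed start, some of which lie inside a longer annotated gene, the 1 start of Eif4ebp2 had an ETS core, and of 6 starts of Eif5a 3 had an E-box and 1 an ETS core. Of the 48 genes, 38 matched the promoter table. An E-box was found before at least 1 start of 8 of these (21.1%), against 6.86% of all 27025 genes in the table, and in 19.6% of their windows, against 6.02% of all windows. The ETS core was found in 15 genes (39.5%), against 13.6% of all genes, and in 31.4% of the windows of the 38, against 12% of all windows. TGATGNAA was found in 1 (2.63%, the eIF2 gamma subunit gene Eif2s3x), against 3.91%. The comparison took every gene of the promoter table and was not limited to genes tested here or to genes of similar level. Overlaps between matches were not counted, and matches describe letters only.

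Of the 4 eIF2 kinase genes none passed the test, and 2 lay below 0. Differences between the kinases were not tested. Eif2ak1 encodes HRI, which responds to lack of haem and relays mitochondrial stress. It read 0.14, 0.199 and 0.253 in UCP1 cells, against 0.419, 0.395 and 0.466 in Tet-off cells. All 6 readings lay below the array medians, and the groups did not overlap. The log2 difference was -1.15 ± 0.391 (SE, limma, adjusted p = 0.144), and -0.79 once an offset of 0.125 had been added to every intensity. Eif2ak2 encodes PKR, the kinase activated by double-stranded RNA, and read 1.95, 2.21 and 1.78 in UCP1 cells, against 2.42, 2.41 and 2.23 in Tet-off cells. Its groups also did not overlap, at -0.25 ± 0.139 (SE, adjusted p = 0.396 in limma), while its dimmer probe stood at 0.02 with overlapping groups.

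The estimates of the other kinases were above 0. Eif2ak3 encodes PERK, the sensor of unfolded protein in the endoplasmic reticulum, and read 22.7, 15.6 and 17.0 in UCP1 cells, against 16.5, 14.2 and 17.1 in Tet-off cells. UCP1 array 1 alone lay above all Tet-off arrays, and the log2 difference was 0.20 ± 0.148 (SE, limma, adjusted p = 0.556). Eif2ak4 encodes GCN2, which senses uncharged tRNA. It read 7.44, 5.72 and 5.92 in UCP1 cells, against 5.92, 5.55 and 6.39 in Tet-off cells, a difference of 0.09 ± 0.130 (SE, adjusted p = 0.785 in limma). Without UCP1 array 1 its estimate was -0.03.

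The substrate of these kinases was measured by its other subunits, since Eif2s1, the alpha subunit with the phosphorylated serine, was not analysed here. Eif2s2, the beta subunit, read 80.2, 67.5 and 65.4 in UCP1 cells, against 95.7, 92.1 and 92.3 in Tet-off cells. Every UCP1 array lay below every Tet-off array, yet the gene did not pass, at -0.40 ± 0.136 (SE, limma, adjusted p = 0.146). Without UCP1 array 1 it did (adjusted p = 0.0284 in limma), and without any other array it did not (0.255 to 0.389). Eif2s3x, the gamma subunit, read 49.3, 49.3 and 49.1 in UCP1 cells, against 55.3, 46.6 and 51.0 in Tet-off cells, so that the UCP1 arrays fell inside the Tet-off range. Its Y-linked copy Eif2s3y was dim, at 0.316, 0.193 and 0.253 in UCP1 cells, against 0.432, 0.322 and 0.183 in Tet-off cells, with overlapping groups, and whether the probes tell the copies apart was not tested. The 2 factors that can deliver initiator tRNA without eIF2 were both below 0 and not called. Eif2d read 0.254, 0.525 and 0.393 in UCP1 cells, against 0.764, 0.780 and 0.576 in Tet-off cells, and its groups did not overlap (-0.90 ± 0.309, SE, limma, adjusted p = 0.146). Eif2a, at -0.17, had overlapping groups.

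For eIF2B, 0 of 5 subunit genes passed and 4 lay below 0, with a median of -0.21. The catalytic epsilon subunit gene Eif2b5 had the lowest value, -0.37 ± 0.141 (SE, limma, adjusted p = 0.202), from readings of 59.7, 46.2 and 44.5 in UCP1 cells, against 63.9, 61.6 and 66.9 in Tet-off cells. It was the only subunit gene whose groups did not overlap, and it passed without UCP1 array 1 (adjusted p = 0.0245 in limma). Without any other array it did not pass (adjusted p of 0.344 to 0.471 in limma). The alpha subunit gene Eif2b1 read 29.4, 20.6 and 24.5 in UCP1 cells, against 26.8, 25.8 and 26.9 in Tet-off cells. The beta subunit gene Eif2b2 read 18.7, 17.7 and 15.2 in UCP1 cells, against 20.7, 18.6 and 20.9 in Tet-off cells. Both overlapped between groups, at -0.11 and -0.22. The gamma subunit gene Eif2b3, with a log2 difference of 0.12, read 1.58, 1.14 and 1.19 in UCP1 cells, against 1.12, 1.12 and 1.32 in Tet-off cells. The delta subunit gene Eif2b4, at -0.21, read 38.4, 27.9 and 31.3 in UCP1 cells, against 39.3, 35.5 and 36.8 in Tet-off cells. In all 5 the highest UCP1 reading was that of array 1.

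The eIF3 genes leaned to 1 side in the deposited scaling without a single call. All 11 lay below 0, with a median of -0.33 and a range of -0.61 to -0.07, and 6 had an unadjusted p under 0.05 (limma), against 22.3% lower among all genes at or above the median probe, where all 11 lie. In 7 of them (63.6%) the UCP1 arrays lay wholly below the Tet-off arrays, against 17.1% of all genes. That share was not computed for the brighter genes alone. After quantile normalization 8 of 11 lay below 0 and the median was -0.10, and cyclic loess also left 8 of 11 below 0. The largest difference was that of Eif3d, a subunit that can itself bind the cap of some mRNAs, which read 7.75, 12.2 and 9.11 in UCP1 cells, against 16.5, 15.3 and 12.3 in Tet-off cells. The groups were separated by a narrow gap, at -0.61 ± 0.168 (SE, limma, adjusted p = 0.0759). Eif3a, the large scaffold subunit, read 2.33, 3.19 and 2.91 in UCP1 cells, against 4.37, 3.94 and 3.73 in Tet-off cells, without overlap (-0.52 ± 0.144, SE, limma, adjusted p = 0.0764). At the other end stood Eif3b, a core subunit, with 134, 96.9 and 102 in UCP1 cells, against 121, 110 and 116 in Tet-off cells. UCP1 array 1 held its highest and array 2 its lowest reading, and the difference was -0.07. Eif3c, Eif3h, Eif3i, Eif3k and Eif3m lay between -0.42 and -0.28 with groups that did not overlap, while Eif3e, Eif3f and Eif3l overlapped.

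**Figure D2:**
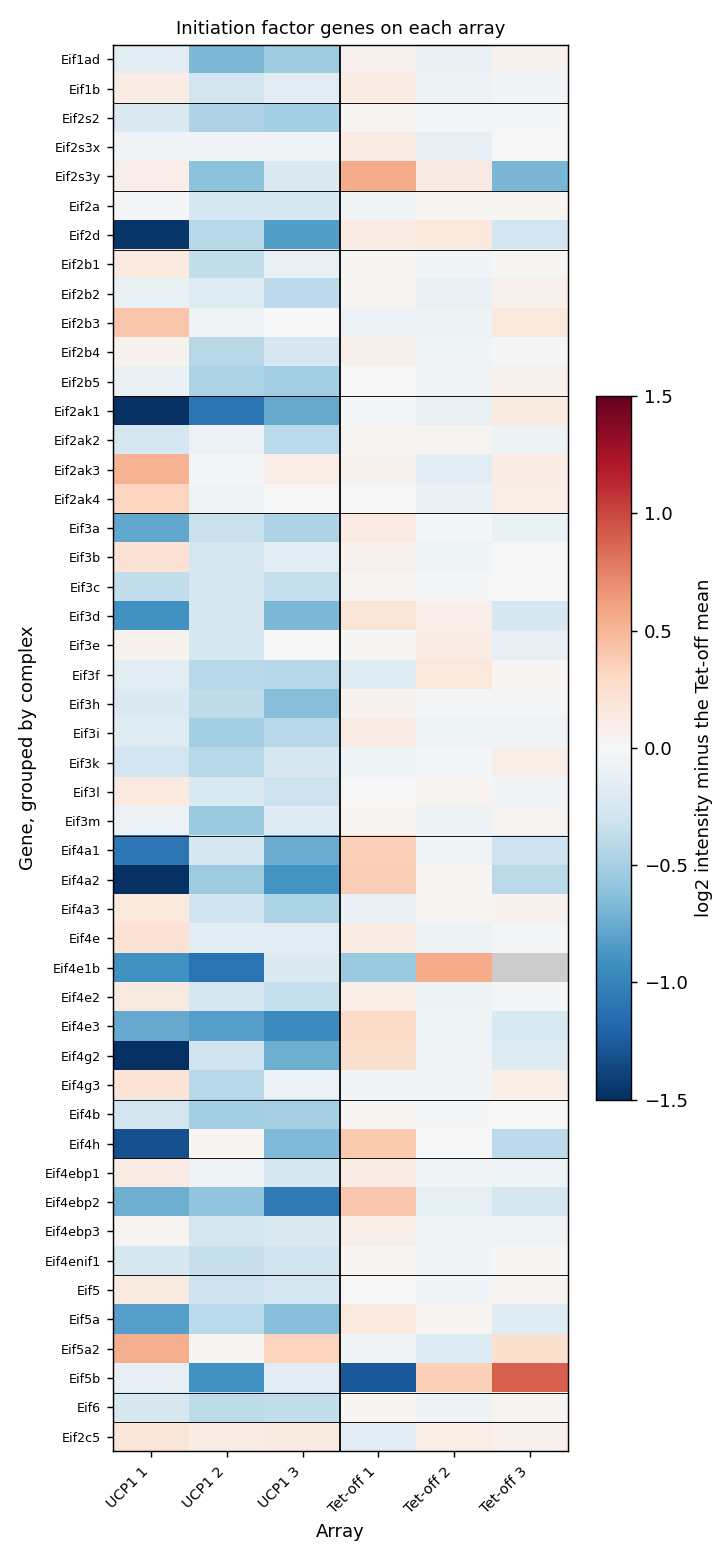
Log2 intensity of each gene on each array minus its Tet-off mean, with genes in rows grouped by complex and arrays in columns; colours are capped at 1.5 in each direction and grey marks a value below 0. Eif4a1, Eif4a2, Eif4g2 and Eif4h are darkest on UCP1 array 1, while Eif2ak3 and Eif2b3 are red there.

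Within eIF4F and its paralogues, the gene that fell was Eif4e3. It read 4.56, 4.34 and 3.97 in UCP1 cells, against 9.39, 7.37 and 6.56 in Tet-off cells. The UCP1 arrays were tightly grouped and far below the Tet-off arrays, which was a 1.79-fold lower level and a log2 difference of -0.84 ± 0.142 (SE, limma, adjusted p = 0.0107). The call held after quantile normalization (adjusted p = 0.0143 in limma) and was lost without UCP1 array 3 (adjusted p = 0.0984). The main cap-binding gene Eif4e read 68.9, 52.6 and 52.8 in UCP1 cells, against 64.1, 56.1 and 57.8 in Tet-off cells. Its groups overlapped on both of its probes, at -0.04 and -0.03. Eif4e2, which encodes the repressive cap-binding protein 4EHP, was also measured with overlapping groups on both probes, at -0.16 and -0.14. Eif4e1b was at or near the floor, with 0.0968, 0.0841 and 0.157 in UCP1 cells, against 0.123, 0.268 and -0.0549 in Tet-off cells. The negative value was set to the smallest positive value of its array, so its fitted difference of 1.81 ± 2.25 (SE) depends on that floor, and it was 0.03 with the offset.

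None of the 3 eIF4A helicase genes passed the test. Eif4a2 read 8.75, 18.4 and 14.4 in UCP1 cells, against 34.5, 27.3 and 20.2 in Tet-off cells. The groups did not overlap, and the gene stood just outside the threshold at -1.01 ± 0.248 (SE, limma, adjusted p = 0.0518). It passed without UCP1 array 2 (adjusted p = 0.00715) and without Tet-off array 3 (adjusted p = 0.0373), and in limma with the offset. It also passed on the brighter probes alone (adjusted p = 0.0129) and on probes above 0 on all 6 arrays (0.0413) in limma. It did not pass without UCP1 array 1 (0.0757), UCP1 array 3 (0.19), Tet-off array 1 (0.178) or Tet-off array 2 (0.116) in limma. After quantile normalization it did not pass either (adjusted p = 0.166 in limma). Nor did it pass with cyclic loess (0.16), robust eBayes (0.155), eBayes without the trend (0.318) or a replicate block (0.069) in limma. Eif4a1, the main eIF4A gene, read 18.8, 33.0 and 23.8 in UCP1 cells, against 51.2, 38.5 and 32.0 in Tet-off cells. UCP1 array 2 lay above Tet-off array 3, and the difference was -0.70 ± 0.209 (SE, limma, adjusted p = 0.1). Both genes are close relatives, and whether their probes tell them apart was not tested. Eif4a3, the helicase of the exon junction complex, had overlapping groups on all 4 of its probes, at -0.21 on the brightest.

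Of the scaffold genes, Eif4g2 encodes a relative of eIF4G that lacks the eIF4E-binding site. Its brighter probe read 11.6, 28.5 and 21.1 in UCP1 cells, against 41.3, 33.9 and 30.6 in Tet-off cells. UCP1 array 1 was lowest by far, the groups did not overlap, and the difference was -0.87 ± 0.257 (SE, limma, adjusted p = 0.0935). Its dimmer probe read 0.665, 0.623 and 0.722 in UCP1 cells, against 0.505, 0.234 and 0.552 in Tet-off cells, which is the opposite direction, at 0.73 ± 0.331 (SE, limma, adjusted p = 0.286). Those readings lay below the array medians. Eif4g3, the other measured scaffold, stood at -0.10 with overlapping groups. Over the 9 genes of eIF4A, eIF4E and eIF4G, 1 fell, 8 lay below 0 and the median was -0.21. After quantile normalization 4 of 9 lay below 0 and the median was 0.0093. After cyclic loess 5 of 9 lay below 0, with a median of -0.007. These 9 include Eif4e1b, whose estimate depends on the floor. On probes above 0 on all 6 arrays, which leave Eif4e1b out, 8 of 8 lay below 0 in the deposited scaling, with a median of -0.45.

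**Figure D3:**
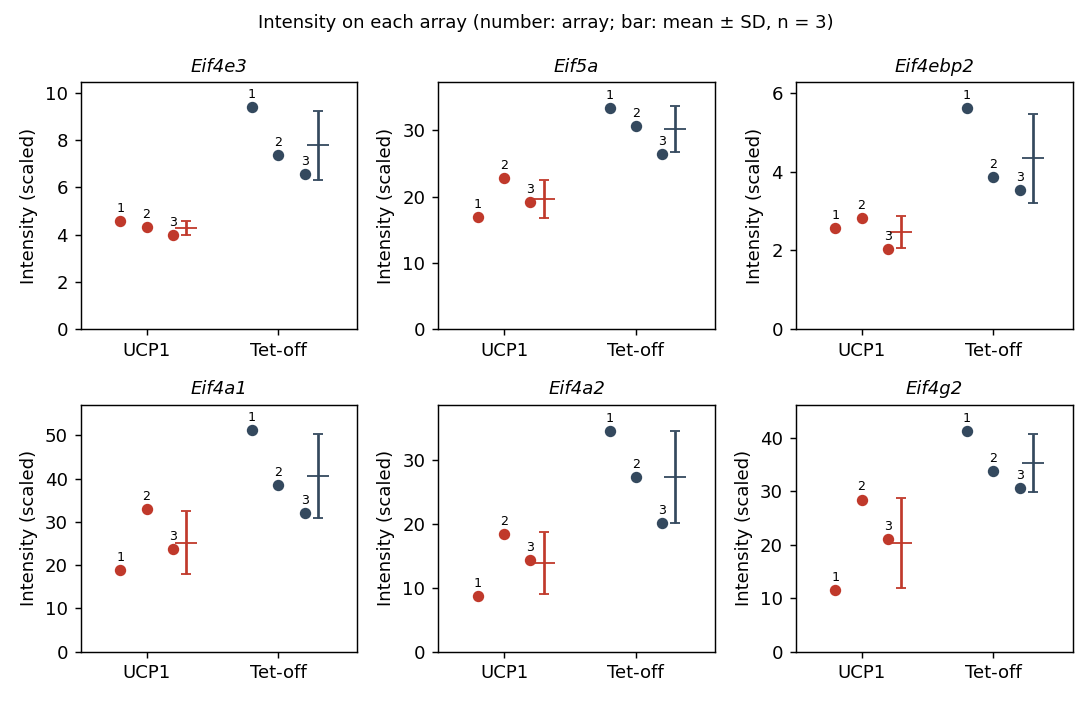
Scaled intensity on each array for the 3 called genes (top) and 3 genes of eIF4A and eIF4G that did not pass (bottom); points carry their array number, and bars give the mean ± SD (n = 3). In Eif4e3 the UCP1 arrays sit between 3.97 and 4.56, all below the Tet-off arrays, while in Eif4a1, Eif4a2 and Eif4g2 UCP1 array 1 is lowest and Tet-off array 1 highest.

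The helicase cofactors were both below 0. Eif4b, which stimulates eIF4A, read 134, 114 and 115 in UCP1 cells, against 164, 160 and 163 in Tet-off cells. The groups were clearly apart, yet it did not pass, at -0.43 ± 0.148 (SE, limma, adjusted p = 0.153). A dimmer probe of the same gene gave 36.3, 33.7 and 33.8 in UCP1 cells, against 48.4, 48.2 and 46.7 in Tet-off cells, at -0.47 ± 0.113 (SE, limma, adjusted p = 0.0509). After quantile normalization the brighter probe stood at -0.13. Eif4h, a related cofactor, read 1.03, 2.61 and 1.62 in UCP1 cells, against 3.35, 2.57 and 1.94 in Tet-off cells, with overlapping groups (-0.65 ± 0.292, SE, limma, adjusted p = 0.284).

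Of the 4 genes of proteins that bind eIF4E outside eIF4F, 1 fell and all 4 lay below 0, with a median of -0.22. Eif4ebp2 fell 1.74-fold, with 2.56, 2.82 and 2.03 in UCP1 cells, against 5.62, 3.86 and 3.53 in Tet-off cells. The groups did not overlap and the difference was -0.80 ± 0.185 (SE, limma, adjusted p = 0.0442). The call was lost after quantile normalization (adjusted p = 0.0684) and without UCP1 array 1 (0.0576), UCP1 array 3 (0.235), Tet-off array 1 (0.147) or Tet-off array 2 (0.0785), all in limma. Eif4ebp1, the form best known from adipocytes as a target of insulin signalling, read 286, 251 and 218 in UCP1 cells, against 282, 255 and 250 in Tet-off cells. Its groups overlapped, at -0.07 ± 0.180 (SE, limma, adjusted p = 0.893), and its estimate after quantile normalization was 0.30. Eif4ebp3 read 20.4, 16.4 and 16.9 in UCP1 cells, against 20.9, 19.3 and 19.1 in Tet-off cells, also with overlap, at -0.15. Eif4enif1, which carries eIF4E into the nucleus, read 11.5, 10.7 and 11.0 in UCP1 cells, against 13.9, 13.1 and 13.7 in Tet-off cells. That separation was not called (-0.29 ± 0.104, SE, limma, adjusted p = 0.163).

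Among the late factors, Eif5a fell 1.54-fold. It read 16.9, 22.7 and 19.2 in UCP1 cells, against 33.3, 30.7 and 26.5 in Tet-off cells. The groups did not overlap, at -0.62 ± 0.139 (SE, limma, adjusted p = 0.0371). The call was lost after quantile normalization (adjusted p = 0.149) and without UCP1 array 3 (0.168), Tet-off array 1 (0.151) or Tet-off array 2 (0.117) in limma. Its paralogue Eif5a2 stood on the other side of 0, with 1.77, 1.24 and 1.53 in UCP1 cells, against 1.18, 1.06 and 1.44 in Tet-off cells. The groups overlapped (0.30 ± 0.188, SE, limma, adjusted p = 0.475), and the difference between the paralogues was not tested. Eif5, the factor that triggers GTP hydrolysis by eIF2, stood at -0.15 with overlapping groups. Eif5b, which joins the large subunit, was dim and varied widely, with 0.485, 0.282 and 0.471 in UCP1 cells, against 0.222, 0.679 and 0.991 in Tet-off cells.

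Eif6, which keeps the large ribosomal subunit from joining early, read 20.5, 18.7 and 18.9 in UCP1 cells, against 24.9, 23.1 and 25.0 in Tet-off cells. Its groups did not overlap, and it was not called (-0.33 ± 0.109, SE, limma, adjusted p = 0.132). Eif1ad, which carries an eIF1A-like domain, read 30.2, 21.2 and 23.2 in UCP1 cells, against 35.2, 31.2 and 34.8 in Tet-off cells. It too was separated without a call (-0.45 ± 0.143, SE, limma, adjusted p = 0.114), and it passed without UCP1 array 1 (adjusted p = 0.0153 in limma), as did Eif6 (0.0471). Neither gene passed without any other array. Eif1b, a close copy of the start codon factor eIF1, overlapped, with 31.8, 24.3 and 26.1 in UCP1 cells, against 31.8, 27.9 and 28.7 in Tet-off cells. Eif2c5 matched the naming rule, but its symbol follows the older name of the Argonaute genes, which act in RNA silencing and are not initiation factors. It was the only gene whose UCP1 arrays all lay above the Tet-off arrays, at 2.44, 2.34 and 2.38 in UCP1 cells, against 1.93, 2.31 and 2.27 in Tet-off cells, and its difference of 0.14 did not pass (limma, adjusted p = 0.647).

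The arrays did not contribute evenly. UCP1 array 1 gave the lowest of the 6 readings in 10 genes and the highest in 15, whereas UCP1 arrays 2 and 3 gave the lowest in 17 and 12 and the highest in 0. UCP1 array 1 was lowest in 20.8% and highest in 31.2% of these 48, against 14.0% and 27.3% of all genes. UCP1 arrays 2 and 3 were lowest in 25.1% and 24.4% of all genes and highest in 10.2% and 10.1%. Tet-off array 1 was highest in 21 of the 48 (43.8%), against 27.4% of all genes. In 8 genes UCP1 array 1 was lowest and Tet-off array 1 highest at once, namely Eif3a, Eif3c, Eif3d, Eif4a1, Eif4a2, Eif4g2, Eif4h and Eif5a, whose differences were between -1.01 and -0.33. The genes highest on UCP1 array 1 included Eif2ak3, Eif2ak4, Eif3b, Eif4e, Eif4ebp1 and Eif5. The part of these array differences in the results was not tested beyond leaving each array out.

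Level also moved with the change. The 99th percentile of intensity was 185 to 225 on the UCP1 arrays and 255 to 279 on the Tet-off arrays, and over all genes the median difference per unit of log2 level was 0.05 just below a mean log2 intensity of 0, -0.14 from 4 to 5, -0.24 from 8 to 9 (87 genes) and -0.11 in the brightest unit (26 genes). Of the 48 genes 43 were at or above the median probe. The 10775 genes of that brighter part had a median of -0.11 with 67.0% below 0, and 4.67% of them were called lower. Set against the median of all genes in its own unit of level, 31 of the 48 lay below it.

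**Figure D4:**
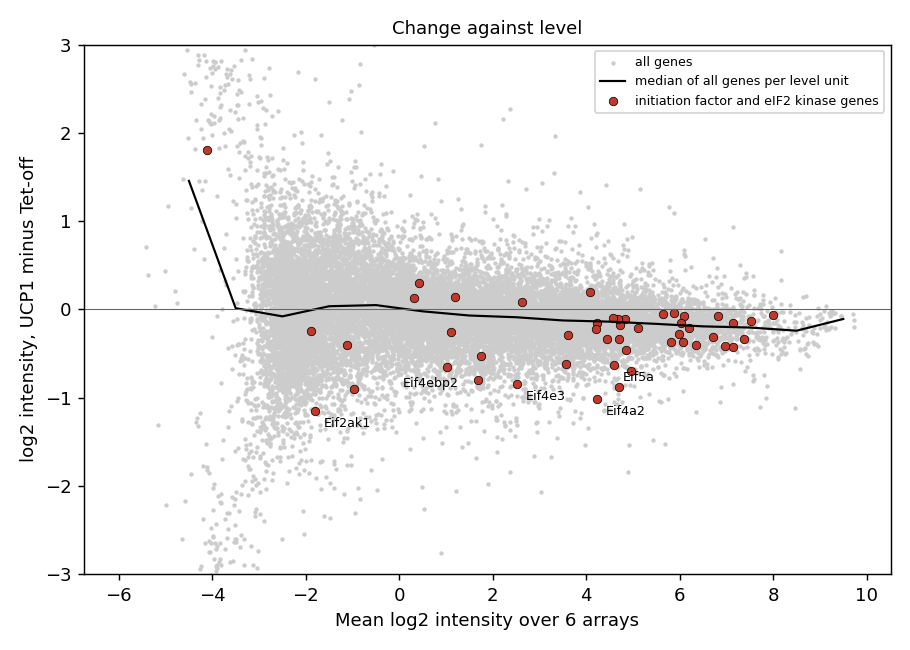
Log2 intensity of UCP1 minus Tet-off against mean log2 intensity for all genes (grey, 89 lie beyond the axis), with the median of all genes per unit of level (line, units with at least 20 genes) and the 48 genes in red. The line lies below 0 for genes brighter than a log2 intensity of 0 and turns up in the brightest unit, and Eif4a2, Eif4e3, Eif4ebp2 and Eif5a lie well beneath it.

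Other parts of the translation machinery are given side by side, with no test of the difference, beside the 87.5% below 0 among the 48 genes. Of all genes 60.1% lay below 0 and 2.92% were called lower, and 49.0% lay below 0 after quantile normalization. Among genes at or above the median probe 67.0% lay below 0 and 4.67% were called lower. The 57 cytosolic ribosomal protein genes had a median of -0.21 with 50 below 0 (87.7%) and 1 called lower, and 0.13 after quantile normalization, where 14 lay below 0. The 34 aminoacyl-tRNA synthetase genes had a median of -0.27 with 32 below 0 (94.1%) and 1 called lower, and -0.14 after quantile normalization, where 25 lay below 0. The initiation factor genes stood between them after quantile normalization, at -0.092.

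Partners of initiation were read from 7 lists that held 79 further measured genes, of which 5 fell and 0 rose, 67 lay below 0 and the median was -0.21. Among all genes 2.92% were called lower and 60.1% lay below 0. Those shares were 4.67% and 67.0% among genes at or above the median probe. After quantile normalization or cyclic loess, 1 of the 79 was called. Among the phosphatase and GCN2 partners of eIF2, 1 of 10 fell, Ppp1r15a (GADD34), which directs a phosphatase to eIF2 and is itself favoured when eIF2 is phosphorylated. It read 10.5, 8.64 and 9.83 in UCP1 cells, against 14.1, 12.2 and 17.1 in Tet-off cells, without overlap (-0.58 ± 0.139, SE, limma, adjusted p = 0.0482, and 0.0875 after quantile normalization). Of 7 mRNAs whose translation is known to be favoured by eIF2 phosphorylation it was the 1 that fell. All 7 lay below 0 in the deposited scaling, where their median was -0.40. Quantile normalization moved that median to -0.22 and left 0 of the 7 called. Slc7a1 (0.07) and Atf4 then lay above 0. Atf4 itself read 300, 235 and 224 in UCP1 cells, against 289, 271 and 340 in Tet-off cells, with overlapping groups (-0.25 ± 0.192, SE, limma, adjusted p = 0.563). Its estimate turned to 0.12 after quantile normalization, and its mRNA level says nothing of its translation.

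Of 17 measured genes of mTORC1 and MNK control, 1 fell and 13 lay below 0, with a median of -0.11. It was Ddit4, which restrains mTORC1, with 1.40, 1.66 and 1.58 in UCP1 cells, against 3.66, 2.76 and 3.35 in Tet-off cells. The groups were far apart, a 2.10-fold lower level (-1.07 ± 0.150, SE, limma, adjusted p = 0.00443), and it passed without each array in turn and after quantile normalization (adjusted p = 0.00658). In termination, recycling and reinitiation, 2 of 10 fell, and both calls were lost after quantile normalization. They were N6amt1, part of the methyltransferase that modifies the release factor eRF1, at -0.81 ± 0.166, and Abcf1, an ATPase that binds eIF2 and ribosomes, at -0.53 ± 0.123 (SE, limma, adjusted p = 0.0262 and 0.0422). In mitochondrial translation 1 of 10 fell, Mtif2, the mitochondrial counterpart of the factor that brings initiator tRNA to the ribosome. It read 1.29, 2.30 and 1.65 in UCP1 cells, against 2.97, 3.02 and 2.85 in Tet-off cells (-0.80 ± 0.189, SE, limma, adjusted p = 0.0473, and 0.0921 after quantile normalization).

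Among 15 poly(A)-binding proteins and cap partners and 11 elongation factors, 0 passed. The smallest p-values among the first were those of Gigyf1, a partner of 4EHP, at -0.54 ± 0.165 (SE, limma, adjusted p = 0.104), and Paip2b, an inhibitor of poly(A)-binding protein, at -0.41 ± 0.145 (adjusted p = 0.161). Among the elongation factors they were those of Eefsec, the selenocysteine elongation factor, at -1.17 ± 0.488, and Eef2, the translocation factor, at -0.79 ± 0.370 (SE, limma, adjusted p = 0.242 and 0.31). Both of the elongation factor probes read below the array medians on all 6 arrays. With an unadjusted p under 0.05 (limma) the first list held 4 genes, of which Gigyf1, Paip2b and Pabpc4 were lower and Paip1 was higher, at 0.36. At that cut the second list held 1, Eefsec, which was lower. Over all genes 15.1% were lower at the same cut.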

How the data were processed

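Each deposited value is a probe's intensity, not log transformed, and all 6 arrays have nearly one median, a scaling by the authors judged from the values. How spots were scanned, background-corrected and scaled is not stated per the labels. The code -9999 was treated as missing, and nonpositive readings were raised to their array's lowest positive one before log2. UCP1 was set against Tet-off in limma 3.58.1 (R 4.3.3, lmFit and a two-sided eBayes test with an intensity trend), with Benjamini-Hochberg adjustment over the 36116 of 36227 probes that had a value on at least 2 arrays per group at 0.05. Precision is limited by having 3 arrays a group. The platform annotation gave 1 symbol for 21615 probes, several for 681 and none for 13931. Symbols were matched through gene identifiers to RefSeq names of GRCm38.p6 (21487 matched, 0 changed). The functions were tested on simulated arrays. Values were named for every called member, the kinases, eIF2, eIF2B and the 4E-binding proteins, for the members with the largest change in each other complex, and for called genes of the other lists (otherwise the 2 with the smallest p). Further genes were picked after their values were seen. The members, lists and tests were chosen with earlier results of these data known. Alternatives were an offset, quantile and cyclic loess normalization, brighter or fully measured probes, eBayes without the trend or robust, the array number as a block, each array left out, and the mean of all probes per gene.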

Additional observations from a re-analysis of the deposited data

How the results depend on the processing

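Of 3 calls among the initiation factor and eIF2 kinase genes, 1 was left after quantile normalization (median -0.092) and 1 after cyclic loess (median -0.097), where 1 of the other translation genes was called each time. On all probes those settings gave 567 higher and 446 lower calls and 517 higher and 460 lower calls, against 289 higher and 732 lower in the deposited scaling (71.7% lower, against 44.0% and 47.1%). On the brighter probes alone, where fewer were tested, 8 of 43 members and 2239 probes passed. With eBayes without the trend 0 members, 0 other translation genes and 0 probes passed in limma (18 members and 4951 probes at an unadjusted p under 0.05), and Ucp1, at 3.00, had adjusted p = 0.0855. Leaving out each array in turn gave 0 to 9 calls among members (18 had an unadjusted p under 0.05 without UCP1 array 3, where limma called 0), 1 to 9 among other translation genes, 159 to 1894 over all probes, a median of -0.33 to -0.20 and an Ucp1 difference of 2.86 to 3.16. The eIF4A, eIF4E and eIF4G median was 0.0093 under quantile normalization and -0.007 under cyclic loess. The eIF2 kinase median turned to 0.087 on brighter probes, where Eif2ak1 was not tested. The eIF2 subunit median ranged from -0.41 to 0.015 without each array, above 0 only without Tet-off array 1. With the array number as a replicate block 2 members and 776 probes were called, Eif5a being lost (adjusted p = 0.0523). Whether the numbers pair the arrays cannot be told from 3 arrays a group. Deviations of same-numbered arrays correlated at -0.24, -0.0069 and 0.10, and those of differently numbered arrays at -0.36 to 0.35. The digit in the UCP1 titles may belong to the protein's name. The remaining causes were not tested. Eif2ak1, Eif2d and Eif2s3y had dim readings, and the size of their log2 differences depends on how low values are treated. The differences were -1.15, -0.90 and -0.24 in the main fit, and -0.79, -0.72 and -0.18 with the offset.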

Other observations

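Initiation factor probes with more than 1 symbol were outside the rule and are given as values. A probe shared by Eif5a and Igfbp3 read 23.5, 34.1 and 26.2 in UCP1 cells, against 43.8, 38.6 and 34.1 in Tet-off cells, at -0.49 ± 0.155 (SE, limma, adjusted p = 0.119), a direction like that of the Eif5a probe. A probe shared by Eif3j1 and Eif3j2, copies of a loosely bound eIF3 subunit, read 13.8, 16.4 and 12.6 in UCP1 cells, against 21.7, 18.4 and 17.2 in Tet-off cells, at -0.43 ± 0.134 (SE, limma, adjusted p = 0.115). The probe shared by Reep4 and Eif3a stood at -0.27, with 33.5 on UCP1 array 1 above all Tet-off arrays, whereas on the single-symbol Eif3a probe that array was the lowest. The probe shared by Eif1a and a pair of predicted genes was dim, at 0.263, 0.209 and 0.202 in UCP1 cells, against 0.194, 0.271 and 0.257 in Tet-off cells.

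Of the 48 genes, 12 had more than 1 probe. Their 14 further probes had the direction of the brightest probe in 8 cases. None of the 14 passed the test (limma), and those nearest to it were the second probes of Eif4b, at -0.47, and of Eif3e. That Eif3e probe read 20.1, 22.2 and 19.4 in UCP1 cells, against 28.7, 27.0 and 23.4 in Tet-off cells, without overlap (-0.36 ± 0.120, SE, limma, adjusted p = 0.139), while the brighter Eif3e probe overlapped, at -0.08.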
